A study of Mus musculus with 6 samples.

Results

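The complement genes examined here were the 3 chains of C1q (*C1qa*, *C1qb* and *C1qc*), the central component *C3*, the alternative pathway genes *Cfb* and *Cfp*, and the receptors *C3ar1*, *C5ar1* and *C5ar2*. These 9 genes were chosen by name as parts of 1 pathway, out of 36137 genes with a matched transcript, and all 9 were among the 18506 genes that had enough counts to be tested. RNA was sequenced from bone marrow–derived macrophages (BMDMs), which are macrophages grown from bone marrow cells, after 8 hours of hypoxia with serum starvation (HSS), a culture model of ischemia. WT BMDMs came from *LysM*-Cre+/- *Drp1*+/+ mice and Drp1 KO BMDMs from *LysM*-Cre+/- *Drp1* fl/fl mice, with 3 libraries each, and the comparison asks how loss of the mitochondrial fission protein DRP1 changes the macrophage transcriptome under this stress. Both groups thus carried 1 copy of Cre, driven by the lysozyme M promoter that is active in myeloid cells. The study's methods give mice of both sexes aged 8 to 12 weeks, bone marrow of 2 mice pooled per genotype, and 7 days of culture in L929-conditioned medium. The labels give 2.1% oxygen, and no normoxic libraries were analysed here.

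Complement is a cascade of blood proteins that tags microbes and dying cells and calls in leukocytes. C1q starts the classical pathway, C3 is the protein on which all pathways converge, and factor B with properdin forms the amplification loop known as the alternative pathway. Most complement proteins in blood come from the liver, while macrophages are a main source of C1q and properdin and carry receptors for the C3a and C5a fragments.

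In brief, transcripts of 6 of the 9 genes had a higher mean fitted level in Drp1 KO BMDMs and 3 a lower one. *Cfb* was about 2.49-fold and *C1qa* about 1.33-fold higher in the means, and *Cfp* was at 0.770 of the WT level. With genes of at least 10 counts and no pairing, 0 of the 9 had an adjusted p under 0.05, beside 3.36% of all genes (edgeR). On the same unpaired libraries *Cfb* had one with DESeq2 (6.24% of all genes) and with edgeR when genes of fewer counts were kept (4.43%). With libraries paired by number, *Cfb*, *Cfp*, *C1qa* and *C1qc* had one, beside 12% of all genes (edgeR). This pairing was taken from the data and is stated by no source. The 3 receptors had log2 fold changes of -0.23 to 0.18. The share of *C1qb* among the C1q chains was 51.8% in Drp1 KO and 59.4% in WT BMDMs (exact permutation test, two-sided p = 0.1, the lowest possible here).

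The libraries held 23389488 to 32231206 estimated reads each. Levels are CPM (counts scaled to a normalized library size), a positive log2 fold change means a higher level in Drp1 KO, and tests are edgeR's quasi-likelihood test with Benjamini-Hochberg adjustment over all genes tested, unless another is named. The targeted gene, *Dnm1l*, ranged from 69.9 to 75.1 CPM over the WT and from 58.7 to 66.3 CPM over the Drp1 KO libraries (adjusted p = 0.248, edgeR). These values are sums over all its transcripts, in which a loss of the floxed part cannot be read, so they do not by themselves check the deletion. The 8 macrophage markers summed to between 12662 and 14067 CPM per WT library, against 11395 to 13417 CPM per Drp1 KO library, and at an adjusted p under 0.05 *Fcgr1* was higher and *Csf1r* and *Mertk* lower in Drp1 KO (edgeR). Of the markers of other cells, *Ly6g* of neutrophils and *Cd209a* of dendritic cells were at 0 in every library. The 11 neutrophil markers summed to between 90.4 and 98.5 CPM per WT library, against 119 to 222 CPM per Drp1 KO library, most of it from *Mmp8*, and 8 of 8 tested were higher in Drp1 KO BMDMs, 0 of them with an adjusted p under 0.05 (3.36% of all genes tested), 5 with an unadjusted one (16.4%) and 5 with an adjusted one after pairing of the libraries (12%; edgeR). The 6 dendritic cell markers summed to 3.75 to 5.83 CPM against 2.36 to 4.43 CPM, the 7 fibroblast markers to 1.99 to 3.45 CPM against 2.05 to 2.36 CPM, and the 6 lymphocyte markers to 17.1 to 34.3 CPM against 22.1 to 54.5 CPM, most of it from *Ighm*, with 0 genes of these 3 lists called at an adjusted p under 0.05 and 1, *Zbtb46*, at an unadjusted one (edgeR). The part of other cells in the complement results was not tested. In bulk RNA, fewer cells of a type and less RNA per cell cannot be told apart.

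Across all genes tested, 3.36% had an adjusted p under 0.05 (2.29% higher and 1.06% lower in Drp1 KO), and 0 of the 9 complement genes did (edgeR). At an unadjusted p under 0.05, which 16.4% of all genes had, there were 2, *Cfb* and *Cfp*, and both also passed the study's criteria (a difference of over 25% of the lower group and an unadjusted p under 0.05). Of all genes 12.7% passed these criteria, 7.19% higher as *Cfb* and 5.48% lower as *Cfp*. In CPM the groups did not overlap for 2 of the 9 genes, *C3ar1* with every Drp1 KO library above every WT library and *Cfp* with every Drp1 KO library below, and for 21.9% of all genes (11.7% higher and 10.3% lower). The median log2 fold change of the 9 genes was 0.18, beside 0.0046 for all genes tested. With DESeq2, 1 of the 9 had an adjusted p under 0.05, *Cfb*, where 6.24% of all genes did, and with limma-voom 0, where 3.37% did. When the shared library numbers were entered as pairs, 4 of the 9 had one, *Cfb*, *C1qa* and *C1qc* higher and *Cfp* lower, where 12% of all genes did (edgeR). No source states this pairing, which was taken from the data. The libraries numbered 1 held the highest level of their group for the same 7 of the 9 genes in both genotypes, the exceptions being *C3ar1* and *C5ar2*. Those libraries were also the shallowest of each group. Without both of them, which leaves 2 libraries per group, 3 of the 9 genes had an adjusted p under 0.05 (*Cfb*, *C1qa* and *Cfp*), where 10.5% of all genes did (edgeR).

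**Figure D1:**
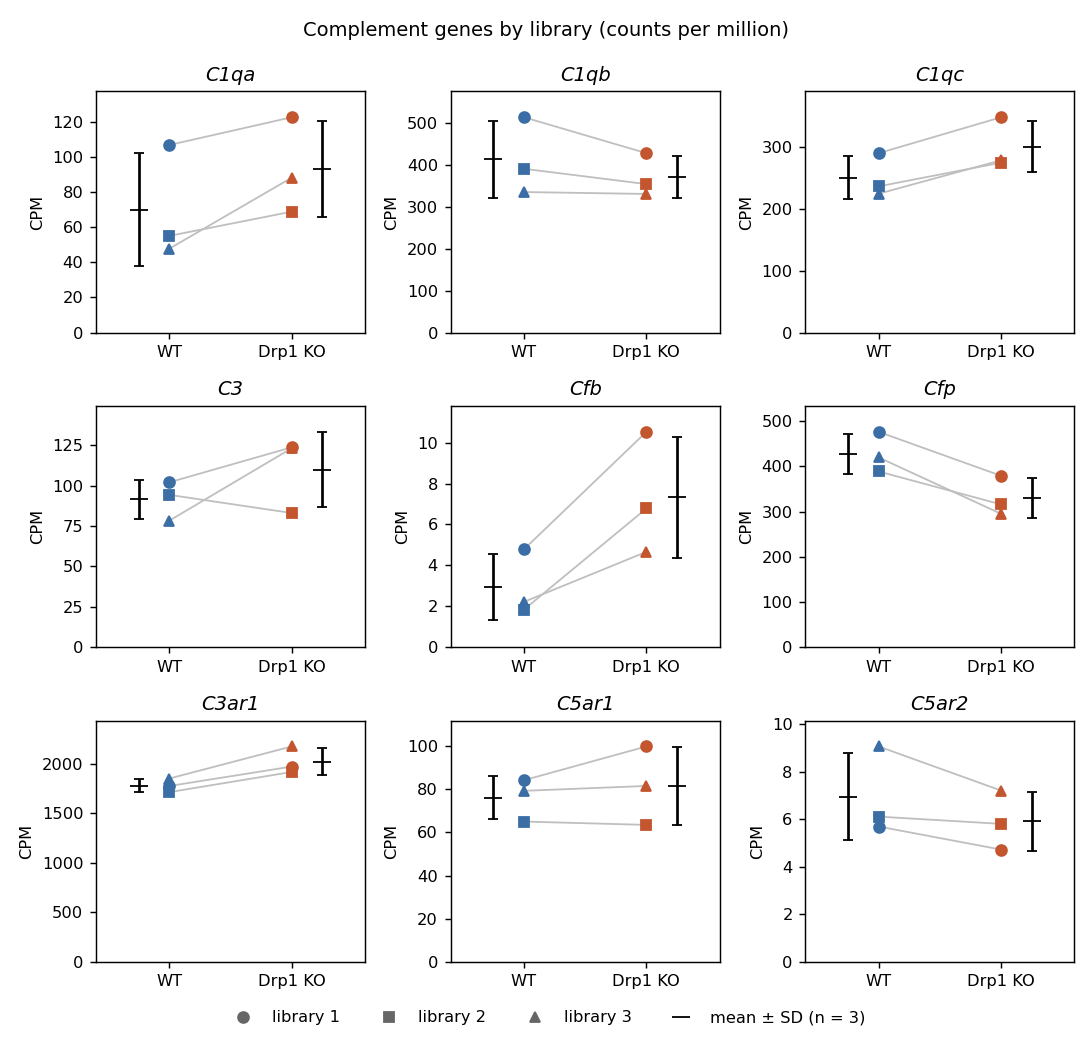
Level of each complement gene in CPM (vertical axes, from 0) in the 3 WT and 3 Drp1 KO libraries. Symbols give the library number, grey lines join libraries of the same number, and black bars are the mean ± SD (n = 3). *Cfp* and *C3ar1* are the genes whose groups do not overlap, and *Cfb* is higher in Drp1 KO in each of the 3 joined pairs.

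Per length of transcript, the 9 genes spanned a 239.9-fold range in WT BMDMs. In mean TPM, a level corrected for transcript length and library size, their order in WT was *C3ar1* (686), *C1qb* (537), *Cfp* (375), *C1qc* (277), *C1qa* (89.6), *C5ar1* (43.9), *C3* (25.9), *Cfb* (2.93) and *C5ar2* (2.86). The WT libraries of *C3ar1* and *C1qb* overlapped, as did those of *Cfb* and *C5ar2*, and the other neighbours in the order did not. The order had 1 change in Drp1 KO BMDMs. *Cfp* was above *C1qc* in 3 of 3 WT libraries (339 to 393 against 256 to 315 TPM) and *C1qc* above *Cfp* in 3 of 3 Drp1 KO libraries (283 to 347 against 262 to 296 TPM). In the means, the receptor for C3a was thus the most abundant of these transcripts and the second C5a receptor among the least. In WT library 1, *C1qb* (659 TPM) was above *C3ar1* (652 TPM).

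**Figure D2:**
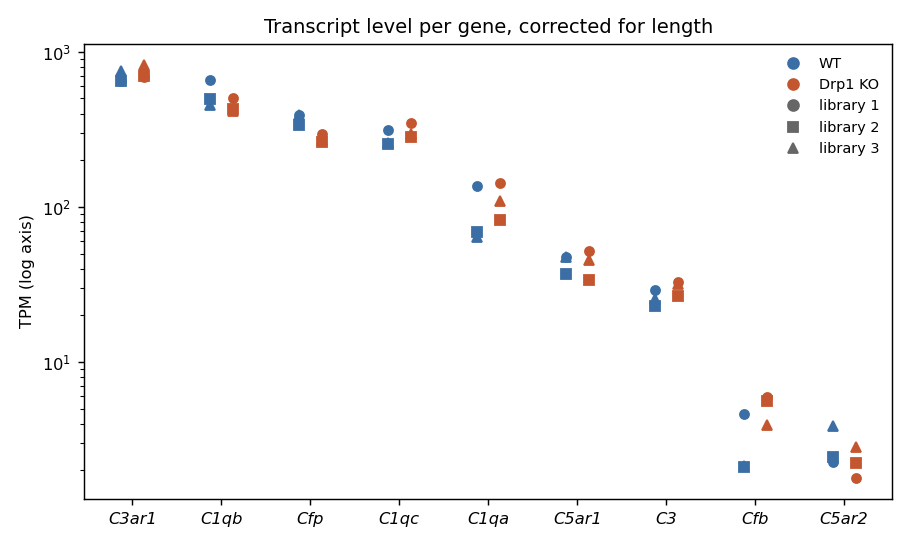
TPM of each complement gene on a log axis, in the order of the WT means, with WT in blue and Drp1 KO in orange and the library number as the symbol. *C3ar1* lies at 649 to 826 TPM and *C5ar2* at 1.78 to 3.89 TPM over the 6 libraries, and *Cfp* and *C1qc* change places between the genotypes.

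The 3 chains of C1q are encoded side by side. On chromosome 4 of GRCm39, all on the minus strand, *C1qb* (ENSMUSG00000036905) spans 136606009 to 136613511, *C1qc* (ENSMUSG00000036896) 136616466 to 136620376 and *C1qa* (ENSMUSG00000036887) 136623223 to 136626161, with 2954 and 2846 bases between them. One molecule of C1q holds the chains in equal numbers. Each gene was counted on 1 transcript, which took at least 99.5% of its reads in each library.

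*C1qa* was at 107, 55.1 and 47.8 CPM in WT libraries 1 to 3 and at 123, 68.9 and 88.2 CPM in Drp1 KO libraries 1 to 3. The groups overlapped, since WT library 1 was above Drp1 KO libraries 2 and 3, while each Drp1 KO library was above the WT library of its number. The log2 fold change was 0.42 (SE 0.289, 95% interval -0.23 to 1.06, adjusted p = 0.547, edgeR), and with pairing it was 0.47 (SE 0.117, adjusted p = 0.0258, edgeR). With 1 library left out it ran from 0.16 (Drp1 KO library 1) to 0.86 (WT library 1), and was 0.25 and 0.19 when WT library 2 and WT library 3 were left out.

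*C1qc* was at 289.7, 236 and 224 CPM in WT and at 348, 274 and 278 CPM in Drp1 KO libraries 1 to 3. Here too only WT library 1 lay among the Drp1 KO values. The log2 fold change was 0.26 (SE 0.131, 95% interval -0.027 to 0.55, adjusted p = 0.359, edgeR), and the same 0.26 with pairing (SE 0.0692, adjusted p = 0.0320, edgeR). The log2 ratios of the 3 same-numbered pairs were 0.26, 0.22 and 0.31, and leaving out Drp1 KO library 1 brought the fold change to 0.13.

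*C1qb* went the other way in its mean. It was at 513, 390.2 and 335 CPM in WT and at 427, 354 and 330.3 CPM in Drp1 KO libraries, and the groups overlapped. The log2 fold change was -0.16 (SE 0.158, 95% interval -0.51 to 0.20, adjusted p = 0.716, edgeR), and without WT library 1 its sign turned, at 0.029.

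As shares within a library, *C1qb* and *C1qc* separated the groups, where their levels overlapped, while the share of *C1qa* overlapped too. In TPM, *C1qb* was 4.84 to 7.21 times *C1qa* in WT and 3.56 to 5.20 times in Drp1 KO libraries. *C1qc* was 2.32 to 4.08 times *C1qa* in WT and 2.45 to 3.43 times in Drp1 KO libraries. Both ratios overlapped (exact permutation tests, two-sided p = 0.2 and 0.5). The share of *C1qb* in the summed TPM of the 3 chains was 59.3%, 60.5% and 58.3% in WT and 50.8%, 54.0% and 50.6% in Drp1 KO libraries 1 to 3. Every Drp1 KO library was below every WT library, and the mean went from 59.4% ± 1.10 to 51.8% ± 1.90 (SD, n = 3 each), a difference of -7.61 percentage points (two-sided p = 0.1 by exact permutation, the lowest p that 3 libraries against 3 allow). The share of *C1qc* was 28.4%, 31.1% and 33.5% in WT and 35.0%, 35.6% and 36.1% in Drp1 KO libraries, again with no overlap, and differed by 4.58 points (exact permutation test, two-sided p = 0.1). The share of *C1qa* was 12.3%, 8.39% and 8.20% in WT and 14.3%, 10.4% and 13.3% in Drp1 KO libraries, which overlapped (3.03 points, exact permutation test, two-sided p = 0.2). Each Drp1 KO share of *C1qa* was above that of the WT library of its number. The shares of the 3 chains add up to 100% and are not separate results. With each library left out in turn, the difference for *C1qb* ran from -8.71 to -7.02 points, and without both libraries 1 it was -7.13 points.

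**Figure D3:**
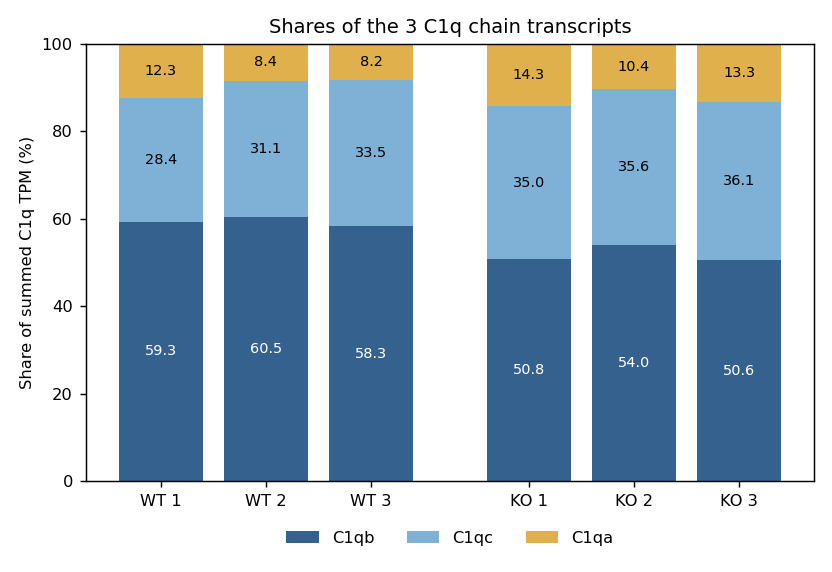
Share of each C1q chain in the summed TPM of the 3 chains (vertical axis, percent), 1 bar per library. The *C1qb* part is 58.3% to 60.5% in the WT bars and 50.6% to 54.0% in the Drp1 KO bars.

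The stretches just before the starts of *C1qb* and *C1qc* are shown because the shares of these neighbouring genes among the C1q chains did not overlap between the groups. They were taken from RefSeq promoter windows (250 bases before to 50 after the start, table of GRCm38.p6) and located in GRCm39 by an exact match. Of the 9 genes, 7 had a window and *C1qa* and *Cfb* had none. For *C1qb* the 250 bases before the start are shown, and for *C1qc* the first 99 bases of the window, which lie outside the annotated gene. Both are written 5′ to 3′ on the minus strand, with capitals marking GAGGAA or its reverse complement, the core of sites of the ETS factor PU.1.
*C1qb*, chr4:136613512-136613761: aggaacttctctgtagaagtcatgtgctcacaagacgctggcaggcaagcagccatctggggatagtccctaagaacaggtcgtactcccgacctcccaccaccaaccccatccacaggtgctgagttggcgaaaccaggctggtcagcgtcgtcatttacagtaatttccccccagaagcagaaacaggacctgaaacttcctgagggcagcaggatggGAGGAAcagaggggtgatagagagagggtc
*C1qc*, chr4:136620377-136620475: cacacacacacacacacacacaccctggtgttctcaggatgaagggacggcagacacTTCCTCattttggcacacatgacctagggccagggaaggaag
The match begins 30 bases before the annotated *C1qb* gene and 42 bases before the annotated *C1qc* gene. The RefSeq start used for the *C1qc* window lies 151 bases inside that gene. Over both strands, GAGGAA was found in 4 of the 8 windows of the complement genes (*C5ar2* has 2 windows) and in 28.3% of 32851 windows of the same length. TATAAA was in 2 of the 8, those of *C3* and *C3ar1*, against 13.6% of all windows. These motifs do not overlap in the 8 windows, and a match is a run of letters, not a measured binding site.

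*C3*, the component whose cleavage products coat targets and feed the amplification loop, lies on chromosome 17 of GRCm39 from 57510964 to 57535155 (ENSMUSG00000024164, minus strand). It was at 102, 94.3 and 78.3 CPM in WT and at 124, 83.1 and 123 CPM in Drp1 KO libraries. Drp1 KO library 2 was below 2 of the WT libraries, and the other 2 Drp1 KO libraries were above all of them. The log2 fold change was 0.26 (SE 0.159, 95% interval -0.090 to 0.62, adjusted p = 0.472, edgeR), and the same-numbered pairs gave 0.28, -0.18 and 0.65. It was 0.15, 0.16 and 0.44 when WT library 3, Drp1 KO library 1 and Drp1 KO library 2 were left out.

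*Cfb* encodes factor B, which supplies the protease of the alternative pathway C3 convertase. The gene (ENSMUSG00000090231) lies on the minus strand of chromosome 17 from 35074852 to 35081559 (GRCm39). It was at 4.79, 1.84 and 2.21 CPM in WT libraries 1 to 3, from 111, 49 and 65 reads, and at 10.5, 6.78 and 4.66 CPM in Drp1 KO libraries, from 232, 222 and 152 reads. WT library 1 was just above Drp1 KO library 3, so the groups overlapped, but each Drp1 KO library was at least 2.10 times the WT library of its number. The mean went from 2.95 ± 1.61 to 7.33 ± 2.97 CPM (SD, n = 3 each). In log2 this was 1.32 (SE 0.379, 95% interval 0.47 to 2.16, adjusted p = 0.10, edgeR). With pairing it was 1.35 (SE 0.181, adjusted p = 0.00105, edgeR). The adjusted p was also under 0.05 with DESeq2 (0.00849), with no filter beyond 1 count (0.00619, edgeR), without WT library 1 (0.0176, edgeR; log2 fold change 1.83) and without both libraries 1 (0.00588, edgeR), and over all the alternatives tried it ran from 0.00105 to 0.350. Its reads were spread over 6 of 8 annotated transcripts in splits that changed from library to library (transcript ENSMUST00000025229 took 71.6% of the reads in WT library 1 and 0% in WT libraries 2 and 3), so only the sum over transcripts is used. Scaling the counts by transcript length moved the log2 fold change to 0.88.

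*Cfp* encodes properdin, the plasma protein that stabilises the same convertase, and was lower in Drp1 KO BMDMs where *Cfb* was higher. The gene (ENSMUSG00000001128) lies on the X chromosome from 20791688 to 20797794 on the minus strand (GRCm39). It was at 476, 389 and 419.8 CPM in WT and at 379, 316 and 295 CPM in Drp1 KO libraries, with every Drp1 KO library below every WT library. The mean went from 428 ± 44.5 to 330.0 ± 43.8 CPM (SD, n = 3 each). In log2 this was -0.38 (SE 0.121, 95% interval -0.65 to -0.11, adjusted p = 0.140, edgeR). With pairing it was also -0.38 (SE 0.0738, adjusted p = 0.00778, edgeR), and the 3 pairs gave -0.33, -0.30 and -0.51. It had an adjusted p of 0.0437 without Drp1 KO library 1 and of 0.0159 without both libraries 1 (edgeR). A stretch of 30 bases just after its start is shown because it holds both matches of the *Cfp* window to the GAGGAA core, in capitals, beginning at bases 7 and 23 of the transcript.
*Cfp*, chrX:20797763-20797792: ccagTTCCTCctgccctgggTTCCTCtttc

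The receptors are the part of the pathway through which macrophages sense complement activation. *C3ar1* (ENSMUSG00000040552, chromosome 6, 122823393 to 122833122, minus strand) encodes the receptor for C3a. It was at 1777, 1715 and 1853 CPM in WT and at 1974, 1919 and 2178 CPM in Drp1 KO libraries, with every Drp1 KO library above every WT library. The log2 fold change was 0.18 (SE 0.0998, 95% interval -0.04 to 0.41, adjusted p = 0.414, edgeR), and the 3 pairs gave 0.15, 0.16 and 0.23.

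*C5ar1* and *C5ar2* lie next to each other on the minus strand of chromosome 7 with 2546 bases between them, at 15980668 to 15993465 (ENSMUSG00000049130) and 15968503 to 15978121 (ENSMUSG00000074361; GRCm39). *C5ar1*, the receptor through which C5a recruits and activates leukocytes, was at 84.2, 65.0 and 79.3 CPM in WT and at 99.9, 63.5 and 81.6 CPM in Drp1 KO libraries. The groups overlapped almost wholly, and the log2 fold change was 0.10 (SE 0.161, 95% interval -0.26 to 0.46, adjusted p = 0.849, edgeR), with a negative sign once WT library 2 or Drp1 KO library 1 was left out. Transcript ENSMUST00000168818 took 35.4%, 52.6% and 69.0% of the gene's reads in WT and 55.8%, 77.9% and 80.4% in Drp1 KO libraries, the rest going to ENSMUST00000050770 (exact permutation test, two-sided p = 0.2). The share was lowest in library 1 of both groups, and each Drp1 KO share was above that of the WT library of its number. The permutation test does not use the numbers.

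*C5ar2*, a second C5a receptor that does not couple to G proteins, was at 5.69, 6.11 and 9.06 CPM in WT and at 4.72, 5.80 and 7.21 CPM in Drp1 KO libraries. The log2 fold change was -0.23 (SE 0.222, 95% interval -0.73 to 0.26, adjusted p = 0.694, edgeR), and in each of the 3 pairs the Drp1 KO library was lower. With 1 library left out it ran from -0.40 (Drp1 KO library 3) to -0.0041 (WT library 3). In TPM, *C5ar1* was 12.2 to 21.0 times *C5ar2* over the WT and 15.1 to 29.2 times over the Drp1 KO libraries (exact permutation test, two-sided p = 0.6).

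**Figure D4:**
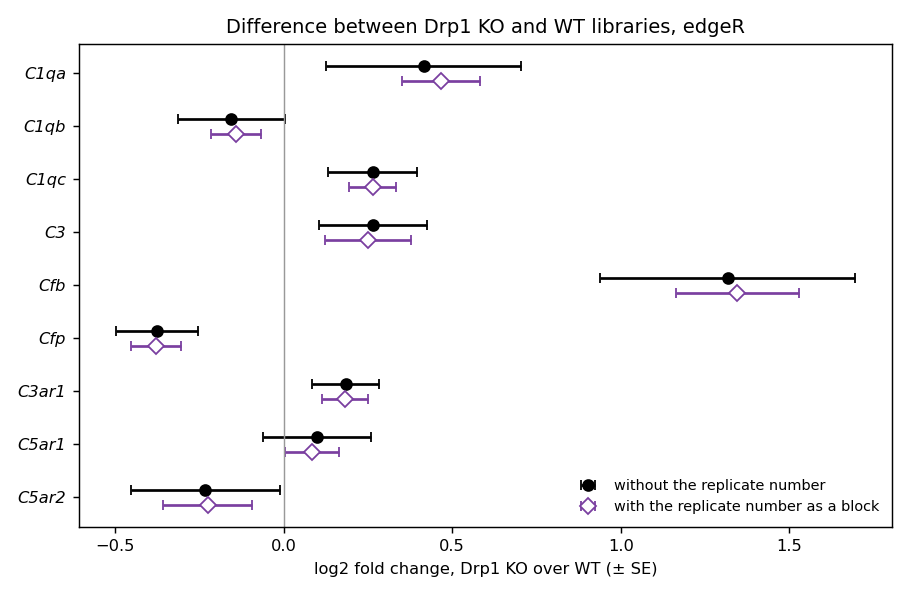
Log2 fold change of each complement gene, Drp1 KO over WT, with its SE as bars, from edgeR without the replicate number (filled circles) and with it as a block (open diamonds). The estimates hardly move between the fits, and the SE is smaller with the block, for *Cfb* 0.181 in place of 0.379.

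The rest of the pathway was followed in a list of 45 complement genes, of which 44 matched, 32 were tested and 17 averaged 1 CPM or more. *C4a* was not analysed here. Of the 32, 3 had an adjusted p under 0.05 (3.36% of all genes tested), 2 higher and 1 lower in Drp1 KO BMDMs (edgeR), and 16 had a higher and 16 a lower fitted level, with a median log2 fold change of 0.0093. By the study's criteria, which 12.7% of all genes passed, 7 of the 32 did, 4 higher and 3 lower.

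Of the 10 initiators and proteases tested, 1 rose and 1 fell at an adjusted p under 0.05, beside 2.29% and 1.06% of all genes, and 3 were higher and 2 lower by the study's criteria, beside 7.19% and 5.48% (edgeR). With pairing, *C1ra* and *C2* were higher and *Colec12* and *Fcna* lower at an adjusted p under 0.05, where 12% of all genes had one (edgeR). *C1ra*, the C1r protease that C1q activates, rose from 4.92 ± 0.484 to 8.09 ± 0.518 CPM (SD, n = 3 each; log2 fold change 0.72, adjusted p = 0.0327, edgeR). *Colec12*, a collectin that is a membrane scavenger receptor, fell from 27.5 ± 4.75 to 16.1 ± 0.589 CPM (log2 fold change -0.78, adjusted p = 0.0145, edgeR). *C2*, the classical pathway counterpart of factor B and its neighbour at 18 bases, was at 3.71, 1.87 and 1.98 CPM in WT and at 4.27, 4.49 and 4.14 CPM in Drp1 KO libraries (log2 fold change 0.78, adjusted p = 0.167, and 0.0305 with pairing, edgeR; 0.49 with length-scaled counts). *C4b*, a C4 gene, had means of 0.672 and 1.41 CPM in WT and Drp1 KO BMDMs (log2 fold change 1.08, adjusted p = 0.176, edgeR). The ficolin *Fcna*, a lectin of the lectin pathway, had 5.07 and 2.81 CPM (log2 fold change -0.87, adjusted p = 0.299, and 0.00781 with pairing, edgeR), and leaving out WT library 1 brought the fold change to -0.37. *Masp1*, a lectin pathway protease, was the remaining one at 1 CPM or more.

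Among the membrane regulators, *Cd55*, which speeds the decay of C3 convertases on the cell surface, rose from 74.1 ± 7.98 to 119 ± 6.78 CPM (SD, n = 3 each; log2 fold change 0.68, SE 0.105, adjusted p = 0.00717, edgeR). *Cd46*, *Cr1l* and *Cd59a* had log2 fold changes of -0.19, 0.090 and -0.050, and that of *Cr1l* ranged from 0.042 (without WT library 2) to 0.16 (without Drp1 KO library 1) with 1 library left out. Of the 3 calls, that of *Cd55* was lost only without WT library 3 (adjusted p = 0.0502, edgeR), while *C1ra* and *Colec12* each lost theirs with WT 2, with WT 3, with Drp1 KO 2 and with Drp1 KO 3 left out. Leaving out Drp1 KO 1 and using length-scaled counts each ended the call of *C1ra* as well.

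Among the other receptors, 0 of the 7 had an adjusted p under 0.05, 2 had an unadjusted one (*Itgb2* and *Itgax*) and *Itgax* passed the study's criteria (edgeR), beside 3.36%, 16.4% and 12.7% of all genes tested. *Itgb2*, the β chain shared by complement receptors 3 and 4, had means of 1137 and 934 CPM in WT and Drp1 KO BMDMs, with no overlap (log2 fold change -0.28, adjusted p = 0.264, and 0.0468 with pairing, edgeR). *Itgax*, the α chain of receptor 4, was at 40.5 to 58.2 CPM in WT and at 27.5 to 47.2 CPM in Drp1 KO libraries (log2 fold change -0.45, adjusted p = 0.285, edgeR), and *Itgam*, the α chain of receptor 3, 909 and 988 CPM (0.12, adjusted p = 0.793, edgeR). *Cr2*, *Cd93* and *C1qbp* had log2 fold changes of 0.024, 0.13 and 0.23, and that of *Cr2* was 0.95 with length-scaled counts (adjusted p = 0.309, edgeR). Leaving out Drp1 KO library 2 brought *Itgb2* to -0.17, *Itgax* to -0.26 and *Itgam* to 0.30, and leaving out Drp1 KO library 3 brought *Itgam* to 0.018. With 1 library left out, *Cd93* ranged from 0.042 (without WT library 2) to 0.21 (without WT library 1) and *C1qbp* from 0.11 (without Drp1 KO library 1) to 0.33 (without WT library 1). Of the terminal components, which form the membrane attack complex, only *C8g* reached a mean of 1 CPM (log2 fold change -0.50, adjusted p = 0.497, edgeR). *C7*, *Cfi*, *Mbl1* and *Mbl2* had 0 counts in every library, where 3 counts, taken as the limit that a count of 0 allows, are 0.0917 to 0.136 CPM. Reads of *C1ra* and *Cd55* can be shared with the close paralogs *C1rb* and *Cd55b*, which were at most at 0.0908 and 0.862 CPM in a library.

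**Figure D5:**
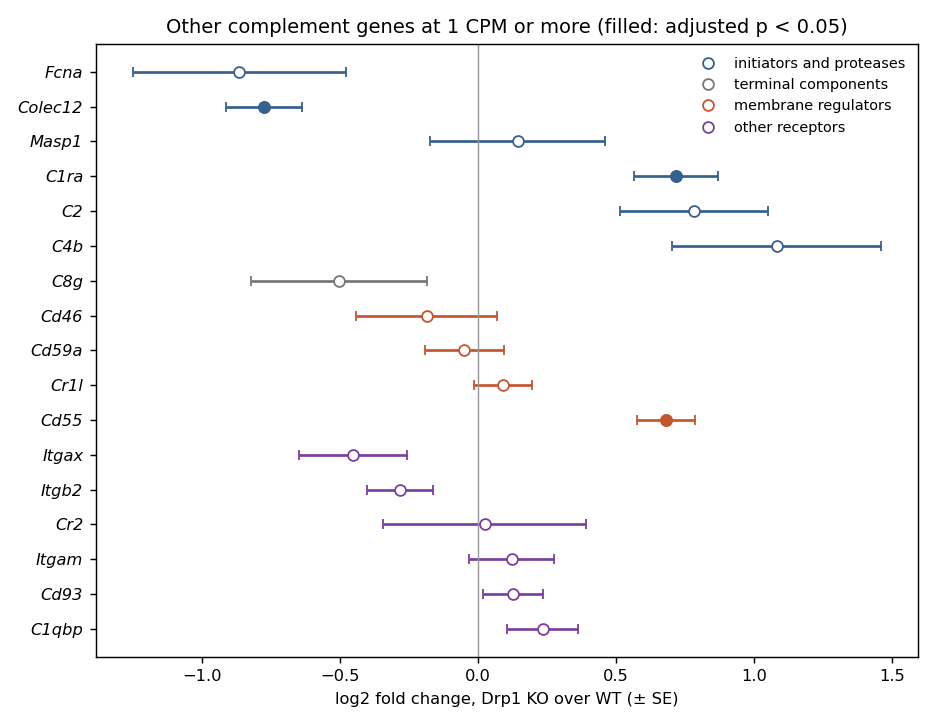
Log2 fold change, Drp1 KO over WT, with its SE as bars, of the 17 other complement genes that averaged 1 CPM or more, coloured by role. Filled points, *C1ra*, *Cd55* and *Colec12*, have an adjusted p under 0.05 (edgeR).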

How the data were processed

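The 6 libraries (3 WT, 3 Drp1 KO) hold poly(A) RNA of BMDMs kept in HSS for 8 hours, sequenced as paired ends. The authors quantified the reads with kallisto 0.46.1 on Ensembl cDNA sequences of GRCm39 and deposited, per transcript, an estimated count and a TPM value. The submitters' processing notes also name DESeq2 1.44.0. The deposited TPM values are scaled by effective length and library, and the estimated counts are not scaled between libraries.

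Of 116873 transcripts, 116159 (99.4%) matched the GENCODE annotation of GRCm39 by identifier. Estimated counts were summed per gene identifier and rounded, genes with at least 10 counts in total were kept, and Drp1 KO was tested against WT with edgeR 4.0.16 (R 4.3.3, TMM, quasi-likelihood test, no covariate). SE is the log2 fold change over the root of F. Shares and ratios were compared by two-sided exact permutation tests in scipy. In counts simulated for 18110 genes, 82% of 200 genes changed 2-fold were recovered, with 14 false calls. The changed genes were drawn from those with higher counts, and no effect shared by library number was simulated. The rate does not apply to smaller changes. Depth per library was 23389488 to 32231206 estimated reads. The floor of 3 counts covers counting error only, and the 95% intervals come from edgeR's fit and include the spread between libraries. No 2 libraries were copies (chi-square per degree of freedom at least 10.4).

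The labels call the libraries biological replicates 1 to 3 of each group. Deviations from the group mean correlated at 0.510, 0.204 and 0.298 between same-numbered libraries over 12248 genes, each over 0.1. The numbers were entered as pairs on the ground of these correlations in the same data, since no source states what they share. For libraries 2 and 3 the correlations do not clearly favour the same numbers. WT library 2 correlated more with Drp1 KO library 3 (0.326) than with Drp1 KO library 2, while WT library 3 with Drp1 KO library 2 gave 0.0802. Deviations from a mean are tied to each other within a group, so these correlations are not independent. The study's methods name no pairing, the fit without it is the main one, and the fit with the number as a block is given where it changes a call. The study's methods pool the marrow of 2 mice per genotype and do not say whether the replicates came from separate pools, so p-values measure the spread between these libraries.

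The 9 genes, the wider list and the marker lists were chosen with earlier results of these data known, and some genes of these lists are not reported here. All 9 are named with their values, as are genes of the wider list with a mean of at least 1 CPM that pass a threshold or change their call with pairing. The alternatives were DESeq2 1.42.0, limma-voom (limma 3.58.1), median-of-ratios size factors, library size only, filterByExpr, no filter beyond 1 count, length-scaled counts, protein-coding transcripts only, the replicate block and leaving out each library. Leaving out libraries 1 of both groups together was added after seeing the data.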

Additional observations from a re-analysis of the deposited data

How the results depend on the processing

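For the 9 complement genes, 130 of 144 values over 16 alternatives kept the direction and side of the threshold, 11 gained a call and 3 turned direction. For 18 other named genes, 259 of 288 did, 11 lost a call, 5 gained one and 13 turned direction. The number of the 9 genes with an adjusted p under 0.05 was 0, against 1 with DESeq2, 1 with no filter beyond 1 count, 4 with the replicate block, 3 without both libraries 1 (added after seeing the data), and 0 to 1 with a library left out. By the study's criteria it was 2, against 3 with the replicate block, 3 without both libraries 1 and 1 to 4 with a library left out (4 without Drp1 KO library 2, 1 without Drp1 KO library 3). For the wider list it was 3, against 6 with the replicate block and 0 to 4 with a library left out. For all genes it was 621, against 1155 with DESeq2, 1065 with no filter beyond 1 count, 2212 with the replicate block, 1880 without both libraries 1 and 181 to 904 with a library left out. Among the complement genes, the block moved no other adjusted p across 0.05 than those given in the report. The cause of these moves was not tested.

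The log2 fold changes that turned with 1 library left out ranged as follows: *C1qb* from -0.30 (no WT 3) to 0.029 (no WT 1), *C5ar1* from -0.081 (no Drp1 KO 1) to 0.26 (no Drp1 KO 2), with -0.020 lacking WT 2, *Cr2* from -0.17 to 0.30, *Masp1* from -0.097 to 0.41, *Cd46* from -0.38 to 0.0035, and *Cd59a* from -0.17 to 0.0094. In other settings, *Cr2* turned to -0.011 with limma-voom and -0.010 with the replicate block, *Cd46* to 0.00015 and *Cd59a* to 0.20 with length-scaled counts, and *Cd59a* to 0.044 without both libraries 1. The lowest count behind a value of the 9 genes was 49 reads, of *Cfb* in WT library 2.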
